A study of Rattus norvegicus with 16 samples.

Results

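The comparison described here is that of the monoiodoacetate (MIA) knee with the saline knee in rats labelled as treated with inhibitor. It was chosen by the titles of the libraries and takes 8 of the 16 libraries of the series, 4 from MIA knees and 4 from contralateral knees. Synovium, the membrane that lines the joint, was collected 4 weeks after 2 mg of MIA in 50 µl of saline had been put through the patellar ligament of 1 knee and 50 µl of saline into the other. All 8 libraries therefore carry the inhibitor, and the other 8 are the MIA and contralateral knees of rats given vehicle. According to the series title the inhibitor acts on fatty acid binding protein 5 (FABP5). The labels used here do not state which compound it was, its dose and schedule, or the strain, sex and age of the rats. The labels give each group sample numbers from 1 to 4 and do not state that these are separate rats, so p-values measure the spread between libraries.

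MIA blocks glycolysis, and after injection into a joint it kills chondrocytes, the cells of cartilage. It is widely used as a model of osteoarthritis pain, in which the synovium becomes inflamed and thickens. FABP5 is a cytosolic carrier of fatty acids and endocannabinoids, and its inhibition has been studied for relief of pain and inflammation.

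The unit of measurement was the transcript. The deposited values were the authors' estimated counts for 46726 Ensembl rat transcripts, and 26956 of these were tested after low counts had been filtered out. The files do not pair transcript identifiers with gene names, so inflammatory, matrix, pain and cell type gene lists are not analysed here, nor is FABP5 itself, and the labelled tissue could not be checked against its markers. For the same reason no sequence is printed. Of the members that passed, 4 are given by identifier and others by their length. Levels are in CPM, counts scaled to a common library size, after TMM scaling, a correction for differences in composition between libraries. In tissue RNA, fewer cells of a type and less RNA per cell cannot be told apart.

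Of the 8 libraries, those numbered 4 stood apart from the rest. On a first principal component holding 37.5% of the variance in log2 CPM their scores were 227.2 in the contralateral and 180.3 in the MIA knee. The other 6 libraries lay between -83.9 and -50.1. The second component, with 14.4% of the variance, separated the knees. Contralateral libraries scored 11.1 to 119.6 and MIA libraries -96.9 to 5.96, with no overlap. An exact two-sided permutation test gave p = 0.0286, the smallest that 4 against 4 libraries allow. Adjusted over the 6 library measures compared, the p of that test was 0.171. The permutations took no account of the pairing by sample number described below, under which so small a p cannot be reached. Contralateral libraries held 15614902 to 27916996 counts and MIA libraries 21619501 to 36668131, with the lowest and the highest of these in the libraries numbered 4. These libraries also had the fewest transcripts with a count, 24383 and 25870, against 27678 to 28812 in the other 6. The 100 most abundant transcripts held 32.8% and 33.8% of their counts, against 25.7% to 28.3%.

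**Figure D1:**
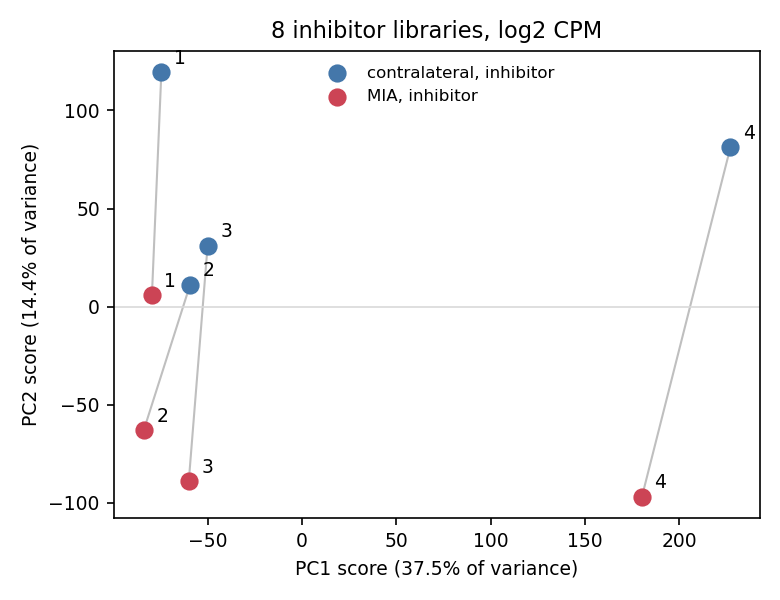
First (x axis) and second (y axis) principal component scores of the 8 inhibitor libraries, from log2 CPM, each a point with its sample number and a line joining the knees of a number. Both libraries numbered 4 lie far to the right, at 227.2 and 180.3, and the MIA library lies below the contralateral one for every number.

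The sample number accounted for more of the variation than the knee. Over the 21620 transcripts that averaged 1 CPM or more, differences between sample numbers held 60.2% of the sum of squares of log2 CPM (3 degrees of freedom), differences between knees 13.3% (1 degree of freedom) and the remainder 26.6% (3 degrees of freedom). Deviations from the group means correlated at 0.15 to 0.51 between knees of the same number and at -0.33 to 0.18 between knees of different numbers. The 0.51 and all negative values involved number 4, which stood apart. Among numbers 1 to 3 the ranges overlapped, at 0.15 to 0.29 for the same number and 0.01 to 0.18 for different numbers. MIA knee 2 correlated better with contralateral knee 1 (0.18) than with contralateral knee 2 (0.15). The numbers were taken to pair the knees, an assumption that the labels do not state. Tests and intervals printed below do not use this pairing unless stated. Within a number, the log2 differences of MIA from contralateral knees were also only weakly alike from one number to another across these transcripts, which are not independent replicates. The correlation was 0.17 to 0.18 among numbers 1 to 3 and 0.03 to 0.08 of any of these with number 4.

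Few single transcripts passed the edgeR test between the knees when all 16 libraries were fitted. By edgeR's quasi-likelihood test with Benjamini-Hochberg adjustment, 1 of 26956 transcripts passed at an adjusted p under 0.05 (0.00371%), and it was higher in MIA knees. No transcript passed as lower. With no adjustment, 1449 transcripts (5.38%) stood at a p under 0.05. Of these, 911 were higher (3.38%) and 538 lower (2%), and the median log2 difference over all tested transcripts was 0.00. With the sample number as a block, edgeR called 0 transcripts in all 16 libraries and 0 in the 8 inhibitor libraries alone. At an unadjusted p under 0.05 these fits held 1896 of 26956 and 2809 of 23997 transcripts, beside 1449 of 26956 without the block. The count differed widely between tools. Of the same 26956 transcripts, DESeq2 called 328, limma-voom with quality weights 358 and limma-voom without such weights 0. The fit without weights held 1893 at an unadjusted p under 0.05.

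The transcript that passed was ENSRNOT00000110623.1, of 588 bases. The 4 contralateral libraries held no count of it. In MIA knees 1 to 4 it stood at 0.528, 0.327, 0.554 and 0.678 CPM, from estimated counts of 14.1, 8.75, 17.9 and 23.5. The groups did not overlap, at a low level. Against a floor of 3 counts per contralateral library it was at least 4.09-fold higher in MIA knees (edgeR adjusted p = 0.0301), a bound that covers counting error only.

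In vehicle rats the same transcript lay the other way. It stood at 5.32, 6.81, 5.31 and 11.6 CPM in contralateral knees 1 to 4 and at 0.728, 0.418, 0.232 and 0.340 CPM in MIA knees. All contralateral vehicle libraries were thus above the other 12, and the 2 groups of MIA knees held like levels, 0.522 ± 0.145 CPM with inhibitor and 0.429 ± 0.213 CPM with vehicle (SD, n = 4 each). The knee difference differed between the treatments by the interaction test (edgeR adjusted p = 0.000262), and in vehicle rats the transcript fell by 4.06 ± 0.53 on the log2 scale (SE, edgeR adjusted p = 0.000358). Its estimated counts were not whole, so reads were divided between it and other transcripts, and an estimate of 0 may follow from that division, which was not tested. With the sample number as a block its edgeR adjusted p was 0.231, and it passed in 15 of the 33 alternatives that tested it. The call was lost on leaving out any 1 of 10 libraries (contralateral inhibitor 1 or 3, MIA inhibitor 2, 3 or 4, contralateral vehicle 2, 3 or 4, MIA vehicle 2 or 4), with edgeR adjusted p from 0.0242 to 0.114 over all 16 such fits.

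The second transcript in order of p was ENSRNOT00000009452.7, of 6284 bases. Contralateral knees 1 to 4 held 51.9, 49.1, 47.2 and 77.4 CPM, and MIA knees 99.2, 224.9, 203.5 and 182.5 CPM. Every MIA library lay above every contralateral one, with MIA knee 1 the lowest of its group and contralateral knee 4 the highest of its own. The estimated log2 difference was 1.65 ± 0.25 (SE), a 3.15-fold higher level, with a 95% interval of 1.12 to 2.19, and it did not pass the adjustment (edgeR adjusted p = 0.148). In the deposited TPM values, which are scaled by transcript length, contralateral libraries held 16.7 to 21.0 and MIA libraries 39.1 to 87.7. In vehicle rats it rose from 55.3 ± 3.28 CPM on the saline side to 204.6 ± 46.7 CPM (SD, n = 4 each; edgeR adjusted p = 0.000224), and the interaction on the log2 scale was -0.23 ± 0.34 (SE, adjusted p = 0.743). With the sample number as a block its edgeR adjusted p was 0.152 in all 16 libraries and 0.190 in the 8 inhibitor libraries. It passed in edgeR without the block when contralateral knee 4 was left out (adjusted p = 0.0341) and when MIA knee 1 was left out (adjusted p = 0.0172).

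The lower transcripts given by identifier, the first 2 by p among those of at least 1 CPM whose groups did not overlap, ranked 42 and 45 among all tested transcripts. ENSRNOT00000105520.1, of 1882 bases, stood at 19.5, 17.4, 15.5 and 19.6 CPM in contralateral knees 1 to 4 and at 8.71, 6.21, 6.01 and 7.99 CPM in MIA knees. The groups lay well apart, and the ratio of MIA to contralateral knee was 0.358 to 0.447 in the 4 numbers. Its log2 difference was -1.31 ± 0.31 (SE; edgeR adjusted p = 0.461). In vehicle rats its mean was 8.75 ± 3.38 CPM for the saline side and 5.58 ± 2.10 CPM for the MIA side (SD, n = 4 each). The other named lower transcript, ENSRNOT00000097507.1 of 4029 bases, held 18.0, 14.9, 18.2 and 11.9 CPM in contralateral knees 1 to 4 and 9.12, 9.99, 7.49 and 8.58 CPM in MIA knees. Its log2 difference was -0.84 ± 0.20 (SE; edgeR adjusted p = 0.469), from a ratio of 0.412 to 0.720 in the 4 numbers. With the sample number as a block the edgeR adjusted p of these 2 was 0.237 and 0.310 in all 16 libraries. In the 8 inhibitor libraries it was 0.176 and 0.275. Neither passed the interaction test without the block (edgeR adjusted p = 0.359 and 0.311).

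**Figure D2:**
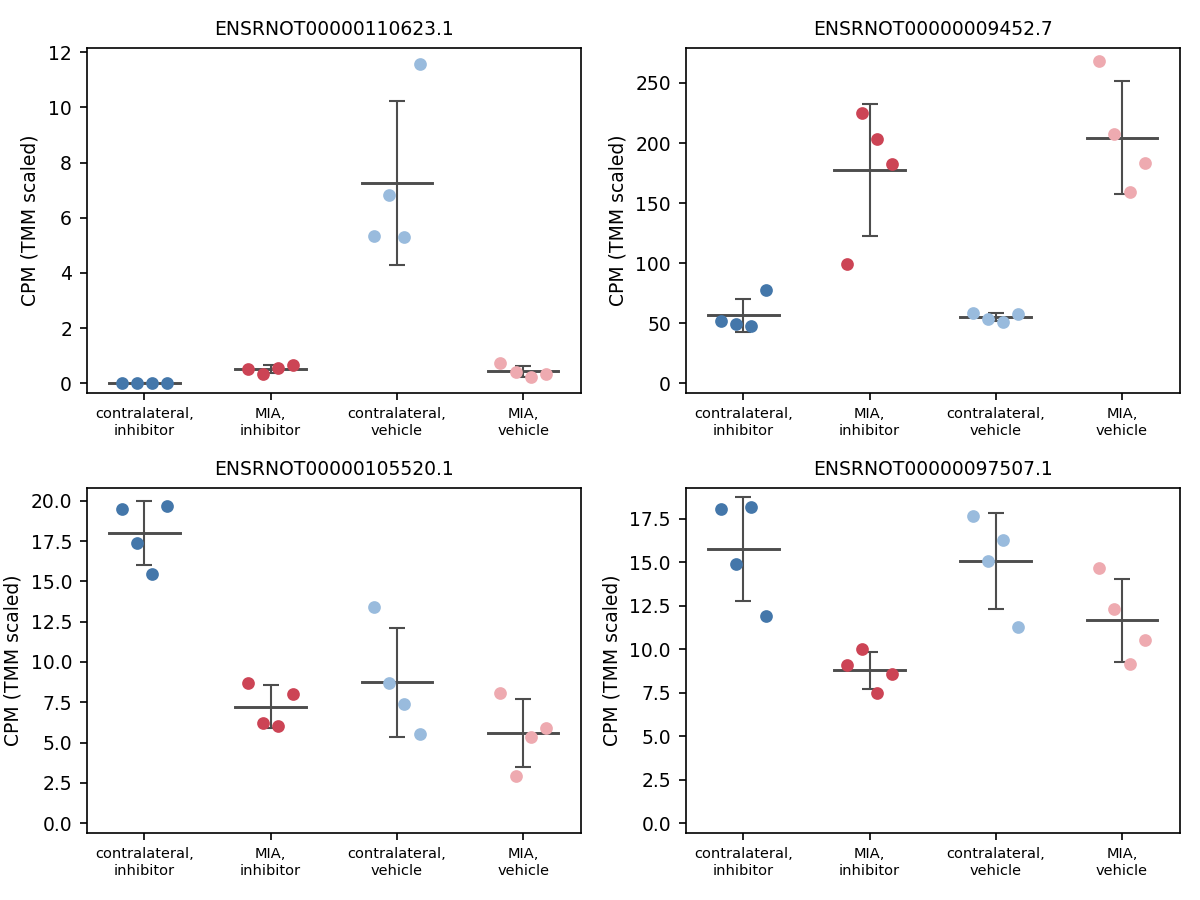
Levels in CPM (y axis) of the 4 transcripts given by identifier, in each library (points, in order of sample number), with the mean and SD of each group (lines and bars, n = 4). In the inhibitor groups the 4 MIA points lie apart from the 4 contralateral points in each panel, and the first panel shows the contralateral vehicle libraries at 5.31 to 11.6 CPM, where the contralateral inhibitor libraries are at 0.

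Separation of the groups was more frequent upward than downward. The lowest MIA level exceeded the highest contralateral level for 694 transcripts (2.57%), and the reverse held for 388 (1.44%). The difference was above 2-fold for 386 of the former and 185 of the latter. Within sample numbers, 227 of the 26956 tested transcripts were over 2-fold higher in the MIA knee of all 4 numbers. Of the same 26956, 78 were over 2-fold lower in all 4. With DESeq2 size factors the numbers of separated transcripts were 653 and 434, so more were higher under both scalings. Leaving out 1 inhibitor library gave 853 to 1607 upward and 503 to 1098 downward, with more upward in each of the 8 cases, and separation is easier to reach with fewer libraries. The upward count moved by over 1.5 times without contralateral knee 2 or 4 (1113 and 1607) or MIA knee 1 or 4 (1310 and 1591). The downward count did so without any of contralateral knees 1 to 4 (631, 637, 656 and 1098) or without MIA knee 1 or 4 (841 and 1033).

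**Figure D3:**
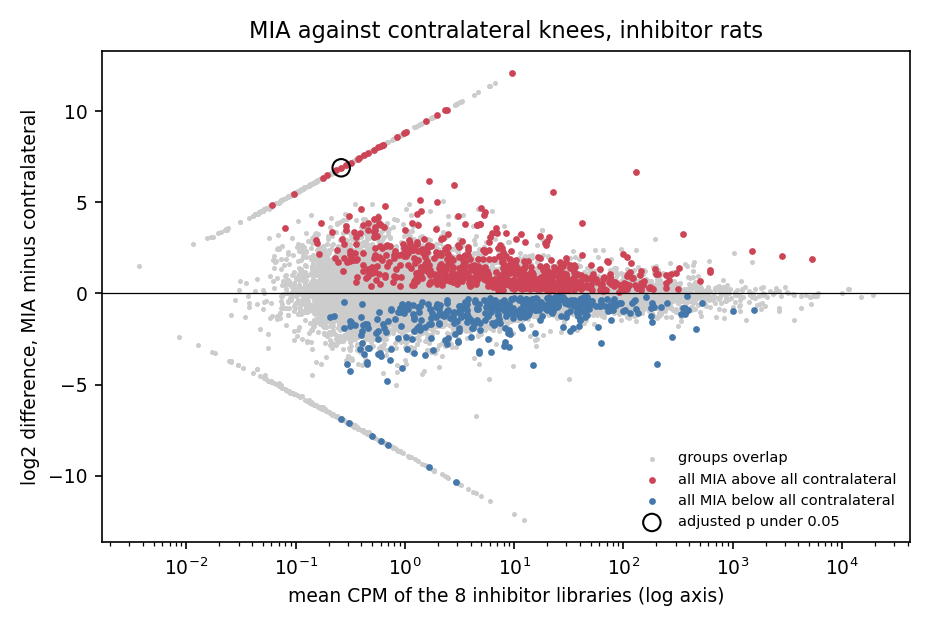
Log2 difference of MIA from contralateral inhibitor knees (y axis) against the mean level in CPM (x axis, log scale) for the tested transcripts, with those whose groups did not overlap in colour and the called one circled. The 694 separated upward outnumber the 388 separated downward, and the slanted lines at the edges are transcripts with no count in 1 of the groups, whose estimates depend on the prior count.

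The shares of separated transcripts by length are given as a description, and their differences were not tested. Of the 7027 transcripts of 4000 bases and above, 203 were separated upward (2.89%) and 69 downward (0.982%). From 2000 to 4000 bases it was 310 of 11170 (2.78%) and 167 (1.5%), and from 1000 to 2000 bases 149 of 6910 (2.16%) and 123 (1.78%). Of the 1849 below 1000 bases, 32 were separated upward (1.73%) and 29 downward (1.57%). The upward share of the longest was thus near the 2.57% of all tested transcripts. The median log2 difference was 0.06 in the longest and -0.12 in the shortest. Of the 4379 transcripts whose counts were whole in all 8 libraries, so that no reads were divided, 187 were separated upward (4.27%) and 95 downward (2.17%). Both shares were above those of all tested transcripts, 2.57% and 1.44%, a difference that was not tested.

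Abundant transcripts were separated by over 2-fold about as often as all tested ones. Of the 1451 with a mean of at least 100 CPM over the 8 libraries, 20 were separated and over 2-fold higher (1.38%, beside 1.43% of all tested) and 9 were separated and over 2-fold lower (0.620%, beside 0.686%). They were selected after the values were seen. None passed the adjustment (edgeR adjusted p from 0.148 to 1). The most abundant, of 8061 bases, held 875, 1966, 1002 and 5195 CPM in contralateral knees 1 to 4 and 5700, 12740, 6647 and 8690 CPM in MIA knees. Its levels varied several-fold within the contralateral group, and its log2 difference of 1.90 ± 0.85 (SE) had an edgeR adjusted p of 0.911. Another, of 8058 bases, ran from 477 to 2205 CPM in contralateral and from 2417 to 6304 CPM in MIA knees.

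A transcript of 1322 bases held 244, 675, 479 and 598 CPM in contralateral knees 1 to 4 and 981, 3091, 2763 and 3185 CPM in MIA knees. Both groups had their lowest level in number 1. Its estimated log2 difference was 2.33 ± 0.53 (SE; edgeR adjusted p = 0.448), and in vehicle rats it rose from a mean of 205.6 to 2129 CPM (edgeR adjusted p = 0.000633). A transcript of 4448 bases held 201, 189, 171 and 196 CPM in contralateral knees and 352, 453, 517 and 350 CPM in MIA knees (log2 difference 1.14 ± 0.27, SE; edgeR adjusted p = 0.469). These levels were close within each group.

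Separation did not always mean a like difference in every sample number. A transcript of 1529 bases stood at 2.25 to 2.86 CPM in contralateral knees and at 5.31, 9.59, 1015 and 11.1 CPM in MIA knees 1 to 4. A single MIA library, number 3, thus held nearly all of its counts among the inhibitor libraries. In vehicle rats its mean was 23.7 CPM on the saline side and 834 CPM on the MIA side (edgeR adjusted p = 0.0368). The estimated log2 difference in inhibitor rats was 6.67 ± 1.85 (SE; edgeR adjusted p = 0.540).

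Of the abundant lower transcripts, one of 4308 bases held 724, 879, 867 and 463 CPM in contralateral knees 1 to 4 and 173, 150, 215 and 231 CPM in MIA knees. Its log2 difference was -1.93 ± 0.61 (SE; edgeR adjusted p = 0.612). In vehicle rats its mean was 172.2 CPM on the saline side and 235.6 CPM on the MIA side, so the contralateral inhibitor libraries were the high ones. Another, of 3189 bases, stood at 442, 361, 136 and 597 CPM in contralateral knees and at 31.2, 0.836, 18.6 and 52.6 CPM in MIA knees (log2 difference -3.89 ± 1.14, SE; edgeR adjusted p = 0.566). The interaction test did not pass for either (edgeR adjusted p = 0.0907 and 0.240).

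A small number of transcripts were found in 1 kind of knee alone. Among all 46726 transcripts, 52 had a count in each MIA inhibitor library and none in the contralateral ones, and 18 showed the reverse. Most were rare, with a median of 0.327 CPM for the former and 0.541 CPM for the latter, on library totals. Of the 52, 25 were abundant enough to be tested and 1 was called. In vehicle rats 35 of the 52 had counts in both kinds of knee and 13 in MIA knees alone. Counts were whole in all 8 libraries for 18 of the 52 and 4 of the 18, so for most of them reads were divided between transcripts.

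The precision of the comparison depended on the level of the transcript. The median half-width of the 95% interval of a log2 difference was 0.98 over all tested transcripts. It was 3.14 below 1 CPM, 1.26 from 1 to 10 CPM, 0.56 from 10 to 100 CPM and 0.66 at 100 CPM and above. For 10197 transcripts (37.8%) the interval lay inside -1 to 1, so that a 2-fold difference in either direction was outside it. This held for 7006 of the 10195 transcripts from 10 to 100 CPM (68.7%), for 864 of the 1451 above these (59.5%), for 2323 of the 9974 from 1 to 10 CPM (23.3%) and for 4 of the 5336 below 1 CPM. In this fit the interval of most transcripts under 10 CPM reached a 2-fold difference in at least 1 direction. With the sample number as a block in the 8 inhibitor libraries the median SE was 0.25, beside 0.37 without the block in the same libraries and 0.46 in the fit of all 16. The interval then lay inside -1 to 1 for 12275 of the 23997 transcripts tested (51.2%), beside 10390 (43.3%) without the block. The intervals are not adjusted for the number of transcripts.

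**Figure D4:**
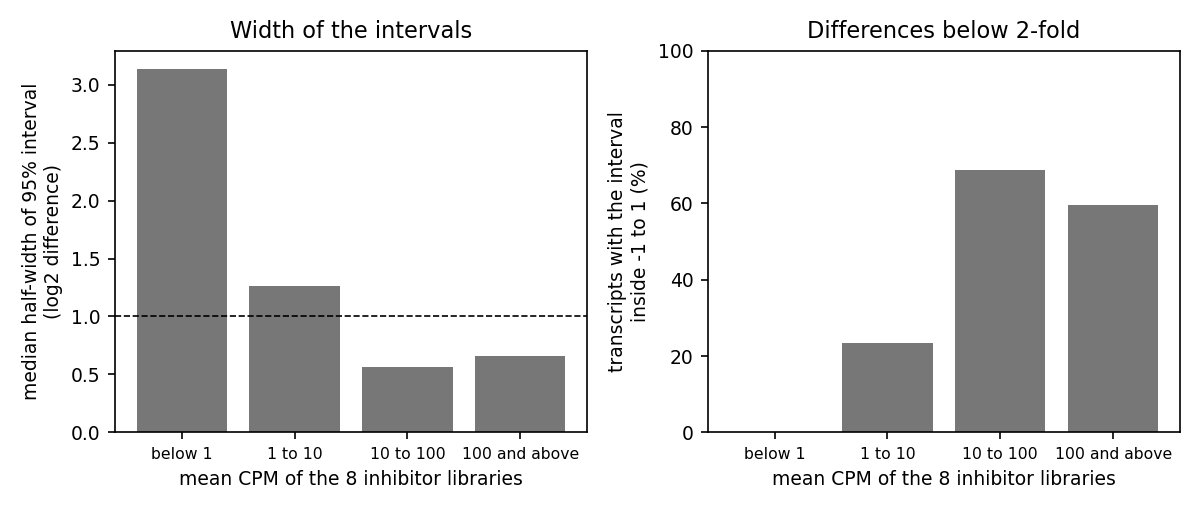
Median half-width of the 95% interval of the log2 difference (left, with a dashed line at 1) and share of transcripts whose interval lies inside -1 to 1 (right, in percent), by mean level in CPM. Intervals were narrowest from 10 to 100 CPM, where 68.7% lay inside -1 to 1, and widest below 1 CPM.

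The knee difference of inhibitor rats was then set beside that of vehicle rats, which uses 8 other libraries in the same fit. In vehicle rats edgeR called 7860 transcripts (29.2%), 4289 higher in MIA knees (15.9%) and 3571 lower (13.2%). The median log2 difference of all tested transcripts was 0.26 in vehicle rats with TMM, 0.10 with DESeq2 size factors and 0.87 on library totals alone. Of the 694 transcripts separated upward in inhibitor rats, 353 (50.9%) were among those called higher in vehicle rats and 35 among those called lower. Of the 388 separated downward, 56 (14.4%) were called lower in vehicle rats and 37 higher. The share for the upward transcripts was well above the 15.9% of all tested transcripts, and that for the downward ones was close to the 13.2% of all. The share was 48.9% upward, beside 13.1% of all, and 19.1% downward, beside 15.6% of all, with DESeq2 size factors. On library totals alone it was 67.8% upward, beside 32.7% of all, and 11.3% downward, beside 7.42% of all.

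For upward transcripts the share exceeded that of all tested transcripts at each of the 4 levels of abundance. From 10 to 100 CPM, 158 of 240 transcripts separated upward (65.8%) were called higher in vehicle rats, beside 22.6% of all transcripts of that level. At 100 CPM and above it was 35 of 47 (74.5%), beside 27.6%. Below 1 CPM it was 25 of 113 (22.1%), beside 6.37%. Downward, 24 of 145 from 10 to 100 CPM (16.6%) were called lower in vehicle rats, beside 19.1% of all at that level, and 1 of 27 at 100 CPM and above, beside 12.7%. Of the abundant transcripts over 2-fold described above, 17 of the 20 higher ones were called higher in vehicle rats and 0 of the 9 lower ones were called lower, by edgeR. A lower one of 3908 bases was called higher in vehicle rats (edgeR adjusted p = 0.0492). It was 1 of 2 of these abundant transcripts that passed the interaction test (edgeR adjusted p = 0.0295), beside 9.9% of all tested.

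**Figure D5:**
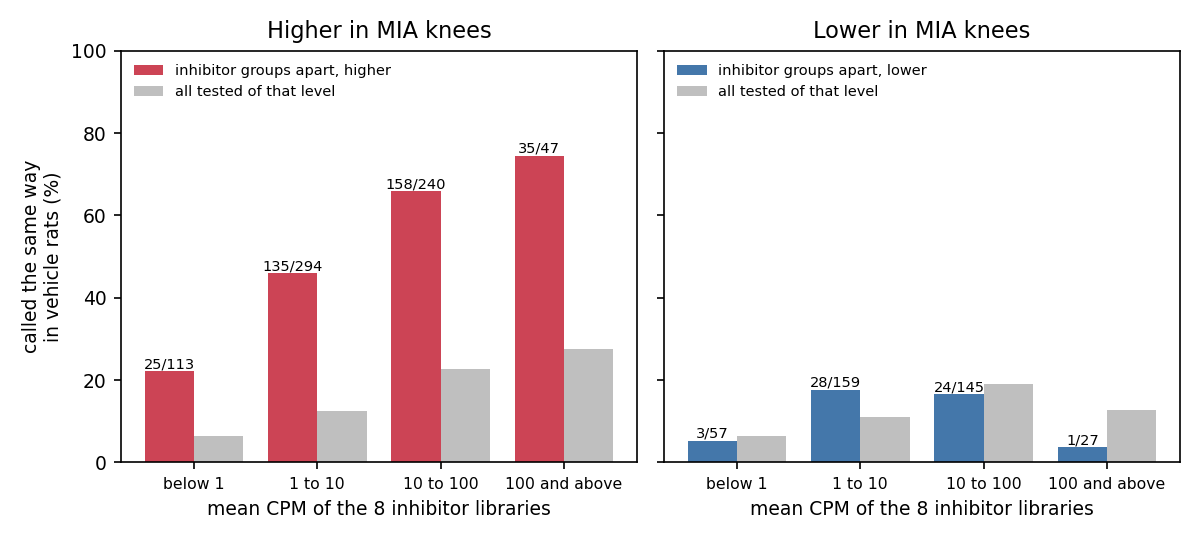
Share of transcripts called in the same direction in vehicle rats (y axis, percent) among those whose inhibitor groups did not overlap (coloured bars, with counts) and among all tested transcripts of that level (grey bars), by mean CPM in the inhibitor libraries. The coloured bar is the taller at each level for higher transcripts, reaching 74.5%, while for lower transcripts it is the taller only from 1 to 10 CPM.

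The libraries that stand apart bear on these shares. The contralateral vehicle libraries had 41.5% to 53.1% of their counts in their 100 most abundant transcripts, against 25.7% to 34.1% in the other 12, and their part in the vehicle calls was not tested. A further fit left out 4 libraries taken to stand apart, replicate 4 of both inhibitor groups and replicate 1 of both vehicle groups. Contralateral vehicle 1 was not apart by its TMM factor, 0.803 beside 0.585 to 0.813 in the rest of its group. In this fit edgeR called 91 transcripts in inhibitor rats, 80 higher and 11 lower. Of the 80, 60 were called higher in vehicle rats in the same fit (75.0%, beside 21.0% of all tested), and of the 11, 7 were called lower (63.6%, beside 21.9%). Over the larger sets at an unadjusted p under 0.05 in that fit, 802 of 1512 higher transcripts (53.0%) and 238 of 963 lower ones (24.7%) were called in the same direction. Of those separated in that fit, it was 1115 of 2487 upward (44.8%, beside 21.0%) and 523 of 1953 downward (26.8%, beside 21.9%). For separated transcripts in the fit of all 16 libraries the shares were 50.9%, beside 15.9%, and 14.4%, beside 13.2%.

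Seen from the vehicle rats, the transcripts called there had small median estimates in inhibitor rats. The 4289 transcripts called higher in vehicle rats had a median log2 difference of 1.32 there and of 0.13 in inhibitor rats, and 3004 of them had the same sign in both. The 3571 called lower had medians of -1.57 and -0.10, with 2417 of the same sign. These transcripts were chosen for their differences in vehicle rats, which by itself makes the vehicle values the larger. The interaction test called 1049 of the former (24.5%) and 1554 of the latter (43.5%), beside 2668 of all tested transcripts (9.9%). The vehicle difference is itself part of what the interaction test compares, so shares above 9.9% follow in part from the choice. For 1064 of the 2989 transcripts higher by over 2-fold in vehicle rats, and for 1221 of the 2620 lower by over 2-fold, the 95% interval in inhibitor rats lay inside -1 to 1. Of these, 488 and 887 passed the interaction test. They had been picked by a large vehicle difference and a small inhibitor one, which favours passing, so these counts are no independent support. For the other transcripts of each set, the larger part, the interval in inhibitor rats was not inside -1 to 1.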

How the data were processed

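Total RNA of rat synovial tissue was prepared with a directional library kit and sequenced on an Illumina instrument, per the labels' protocols. Tools listed are DESeq2 1.30.0, Salmon 1.4.0 and fastp 0.20.1, with the build mRatBN7.2, per the submitters' processing notes. Deposited estimated counts are the authors' expected counts per transcript, unscaled between libraries, and TPM as deposited takes effective length into account, per the file headers. Lengths are in bases.

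Expected counts were rounded, and transcripts kept by filterByExpr with the 4 groups, which left over 99.8% of each inhibitor library's counts. edgeR 4.0.16 (limma 3.58.1, R 4.3.3) scaled them by TMM and fitted 1 mean per group over all 16 libraries (glmQLFit, robust=TRUE), with two-sided quasi-likelihood tests and Benjamini-Hochberg adjustment over 26956 transcripts at 0.05. The SE of a log2 change is its size divided by the root of F. Principal components used log2 CPM with a prior count of 2. Alternatives included DESeq2 1.42.0, limma-voom, limma-trend on log2(TPM + 1) and blocked fits by sample number. The numbers were taken as pairs because deviations from the group means correlated at over 0.1 in all 4 same-numbered pairs. Contralateral 1 with MIA 2 (0.18) and contralateral 2 with MIA 3 (0.14) also exceeded 0.1, so the pairing remains an assumption. Identifiers were printed for at most 2 higher and 2 lower transcripts, called ones first, then those with the smallest p among separated ones of at least 1 CPM. Members, lists and rules were chosen with earlier results of these data known.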

Additional observations from a re-analysis of the deposited data

Results flagged for a closer look

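In groups of 4, values were flagged where 1 library lay far from the others by Dixon's test, over 20 sets of values, and chance flags about 1 in 20. The libraries numbered 4 were flagged for the first principal component in both groups, with scores of 227.2 in the contralateral and 180.3 in the MIA knee. They were also flagged for their TMM factors, 0.914 and 0.925 respectively, and the MIA library numbered 4 for the share of its 100 most abundant transcripts, 33.8%. For ENSRNOT00000009452.7 contralateral knee 4 was flagged, at 77.4 CPM. The knee difference of ENSRNOT00000110623.1 differed between treatments, with an interaction of 10.96 ± 0.90 on the log2 scale (SE). As this transcript had no count in contralateral inhibitor knees, that estimate depends on the prior count and does not measure the size of the difference.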

How the results depend on the processing

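The number of transcripts called between the knees of inhibitor rats was 1 with DESeq2 size factors or upper-quartile factors in edgeR, with robust=FALSE and with counts not rounded. It was 2 with library totals alone, and 0 with no filter on low counts, with a filter at 1 or 10 CPM, and with the 8 inhibitor libraries alone. ENSRNOT00000110623.1 was not among the transcripts tested under the last 3. With the replicate block edgeR called 0 in all 16 libraries, 0 in the 8 inhibitor libraries and 0 when both libraries of any 1 sample number were also left out, and the block as a random effect in limma-voom gave 19. limma-voom called 358 with quality weights and 0 without (1893 at an unadjusted p under 0.05), limma-trend 19 and DESeq2 328. At an unadjusted p under 0.05 the unblocked edgeR fits that called 0 held 1973 of 38078 transcripts with no filter. It was 1108 of 21620 and 656 of 11646 with the CPM filters, and 1351 of 23997 with the 8 libraries. Leaving out each of the 16 libraries gave 0 to 6 calls. It was 0 in 8 of these fits (MIA inhibitor 2, 3 or 4, contralateral vehicle 2, 3 or 4, MIA vehicle 2 or 4), 6 on leaving out contralateral inhibitor 4, 5 for MIA inhibitor 1, 4 for contralateral inhibitor 2 and 3 for contralateral vehicle 1. Leaving out contralateral inhibitor 1 or 3 gave 1 call, of another transcript. Leaving out both inhibitor libraries of number 3 gave 0, and those of number 1, 2 or 4 gave 1, again another transcript and for number 4 a lower one. With the 4 libraries taken to stand apart left out it was 91. The cause of these changes was not tested.

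The interaction count of 2668 was 8457 with limma-voom with quality weights, 4933 with DESeq2, 6895 with the 4 libraries left out, and 1496 to 5532 when single libraries were left out (the highest without contralateral vehicle replicate 1, the lowest without MIA vehicle replicate 2). The replicate block moved it to 2957. No named transcript changed direction under any alternative that tested it, 33 for ENSRNOT00000110623.1 and 41 for each of the others. They were chosen from these same libraries, in which their groups did not overlap, so a kept direction is no independent support. Their estimates ran from 2.22 to 7.06 on the log2 scale for ENSRNOT00000110623.1, 1.44 to 1.85 for ENSRNOT00000009452.7, -1.42 to -1.12 for ENSRNOT00000105520.1 and -0.96 to -0.61 for ENSRNOT00000097507.1, and they passed in 15, 8, 3 and 2 alternatives. The 2.22 came from limma-trend on log2(TPM + 1). As ENSRNOT00000110623.1 had no count in contralateral inhibitor knees, its estimates depend on how each tool handles that and do not measure the size of the difference. Sums per gene were not run, since identifiers could not be paired with genes.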

Other observations

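The calls of the other tools had the same direction as edgeR's estimates. All were fitted to the same counts, so a shared sign is no independent support. All 328 transcripts called by DESeq2 and all 358 called by limma-voom with quality weights had the sign of the edgeR estimate, and 116 were shared between these sets (35.4% of the former and 32.4% of the latter). Of the 328, 229 were higher in MIA knees and 104 had a mean below 1 CPM, with a median of 2.62 CPM. Of the 358, 246 were higher and 32 had a mean below 1 CPM, with a median of 13.2 CPM. ENSRNOT00000110623.1 and ENSRNOT00000009452.7 were in both sets and among the 91 called by edgeR without the 4 libraries taken to stand apart. The 3 sets had 28 transcripts in common.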
